A study of Mus musculus and Homo sapiens with 14 samples.

Results

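The genes described here are 10 mouse genes that are known to answer signalling through the ERK kinases, of 35288 genes listed in each of the mouse expression tables. They were taken by symbol, and all 10 were found in both tables. Of the 10, 5 are early response genes (Fos, Egr1, Junb, Ier2 and Zfp36), 3 encode feedback inhibitors (Dusp6, Spry2 and Spry4) and 2 encode ETS factors of the PEA3 group (Etv4 and Etv5). The genes were selected on the fold changes between these same libraries, in Oli-neu and in MB1, so their values are given as a description and without p-values.

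Expression was measured by RNA sequencing in 5 mouse culture conditions, each with 2 biological replicates. Oli-neu, a mouse line of oligodendrocyte precursor cells, was grown beside MB1, beside D341, or alone. MB1, cells from a Sonic hedgehog medulloblastoma of an Atoh1-cre:SmoM2 mouse at postnatal day 12, was grown beside Oli-neu or alone. D341, a human Group 3 medulloblastoma line, served here as a partner of Oli-neu, and its own table was not used here. In co-culture the 2 lines were kept apart by a 30 mm insert with pores of 0.4 µm. All cells, those grown alone included, were kept in serum-free medium with 20 ng/mL of EGF and 20 ng/mL of bFGF, so every group was exposed to ligands of the receptors that feed ERK. The labels do not give the duration of co-culture or the time since the last change of medium. In the SmoM2 mouse, Cre driven by Atoh1 switches on an active form of Smoothened in granule neuron precursors. Each line is a single source, so its 2 libraries do not sample different animals.

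ERK is the last kinase of a cascade that runs from growth factor receptors through RAS, RAF and MEK. Active ERK turns on immediate early genes within minutes and without new protein synthesis, and most of their transcripts decay again quickly. Sustained signalling, above all from FGF receptors, also keeps up transcripts of the PEA3 factors and of proteins that damp the same cascade. Sprouty proteins act near the receptor, and DUSP6 removes phosphate from ERK itself. In oligodendrocyte precursors the pathway is known to promote proliferation and, later, myelin growth.

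The genes of the early response are short. Their GENCODE M21 transcripts on GRCm38 spanned 1522 bases (Ier2) to 5162 bases (Egr1), with 0 introns in Junb and Ier2, 1 in Egr1 and Zfp36 and 3 in Fos. The median over 12025 genes was 22631 bases and 8 introns. The feedback genes spanned 4258 bases (Dusp6), 4873 bases (Spry2) and 15169 bases (Spry4), while Etv4 and Etv5 had 12 introns each.

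Promoter windows of 250 bases before the RefSeq start were available for 6 of the 10 genes: Fos, Junb, Zfp36, Dusp6, Spry2 and Etv5. That of Fos is shown because it had a higher mean beside either partner in Oli-neu, and that of Dusp6 because its level differed between the 2 partners. Capitals mark TGACG, the core of the cyclic AMP response element, searched on both strands.
Fos, GRCm38.p6 chr12:85473640-85473889, plus strand: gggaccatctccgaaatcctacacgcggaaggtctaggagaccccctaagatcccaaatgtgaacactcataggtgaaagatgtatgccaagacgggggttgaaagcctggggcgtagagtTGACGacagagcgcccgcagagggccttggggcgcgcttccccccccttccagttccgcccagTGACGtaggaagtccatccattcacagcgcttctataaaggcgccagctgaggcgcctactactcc
Dusp6, GRCm38.p6 chr10:99262981-99263230, plus strand: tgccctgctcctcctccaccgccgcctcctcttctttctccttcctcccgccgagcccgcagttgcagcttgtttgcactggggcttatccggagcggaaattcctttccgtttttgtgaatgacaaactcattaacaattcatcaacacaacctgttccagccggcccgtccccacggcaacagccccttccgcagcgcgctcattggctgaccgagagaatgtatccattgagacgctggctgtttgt

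TGACG stood at 129 to 125 and at 66 to 62 bases before the start of Fos and at 106 to 102 bases before that of Junb. It was found in 17.8% of 32851 promoter windows of the same length, and it was added to the search after the windows had been read. The window of Zfp36 held a CArG box, the core of the serum response element, at 58 to 49 bases before the start, a motif present in 1.47% of windows. It also held CCGGAA, the core bound by ETS factors, at 92 to 87 bases (12.0% of windows) and GCGNGGGCG, the motif bound by EGR proteins, at 105 to 97 bases (4.70% of windows). The longer motifs TGACGTCA (1.55% of windows), TGANTCA (6.75%) and CCGGAAGT (2.88%) were not in any of the 6 genes' windows, and none of the searched motifs was in those of Dusp6, Spry2 and Etv5. The serum response element known from the Fos promoter lies farther upstream than this window reaches.

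Zfp36 encodes tristetraprolin, which binds AU-rich stretches of 3' UTRs and speeds the decay of the transcript. Its core motif, written as DNA, is TATTTAT, which is in capitals below in 1 site each of Fos, Zfp36, Spry2 and Etv5, with 9 bases on either side. These sites are shown because short transcript life is a hallmark of the early response and because they cross the classes.
Fos, GRCm38 chr12:85477105-85477129, plus strand: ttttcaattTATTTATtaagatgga
Zfp36, GRCm38 chr7:28376928-28376952, minus strand: attttatagTATTTATatatattgg
Spry2, GRCm38 chr14:105892055-105892079, minus strand: aaaaaagaaTATTTATtttaagagg
Etv5, GRCm38 chr16:22381764-22381788, minus strand: tcataagcaTATTTATagctttcta

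In all, the 3' UTRs held 2 such motifs in Fos, 3 in Zfp36, 2 in Spry2, 4 in Spry4 and 1 in Etv5, and 0 in Egr1, Junb, Ier2, Dusp6 and Etv4. At least 1 motif was present in 27.7% of 12025 genes. A match of letters is not evidence of binding, and no decay rate was measured.

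On GRCm38, Fos lies on chromosome 12 (85473890 to 85477273), Egr1 on 18 (34859823 to 34864984), Zfp36 on 7 (28376784 to 28380253) and Dusp6 on 10 (99263231 to 99267489). Junb (84974484 to 84978718) and Ier2 (84661331 to 84662852) both lie on chromosome 8. Spry2 lies on chromosome 14 (105891947 to 105896819), Spry4 on 18 (38586247 to 38601415), Etv4 on 11 (101769742 to 101785371) and Etv5 on 16 (22381309 to 22439719).

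Values are TPM, transcripts per 1000000, which are scaled for transcript length and sum to 1000000 in each library, so levels of different genes can be set side by side. The tables hold no counts, and the depth behind each value is unknown. Between 11596 and 12338 genes reached 1 TPM in a library. The oligodendrocyte lineage markers reached 1 TPM in 9 of 10 cases in each Oli-neu group, with Nkx2-2 at 0 and sums of 548.0 to 710.4 TPM. The list does not set Oli-neu apart from MB1, where 7 of 10 reached 1 TPM beside Oli-neu (sums of 831.9 and 697.8 TPM) and 9 of 10 alone (1044 and 1189 TPM), with Sox10 below 1 TPM in both. Of 12 markers of hedgehog medulloblastoma and the granule lineage, 6 reached 1 TPM in MB1 beside Oli-neu and 5 in MB1 alone, and Atoh1, Barhl1, Gli1, Gli2 and Sfrp1 were below 1 TPM in both, with Barhl1 at 0 in both and Atoh1 at 0 beside Oli-neu, so these defining markers of the labelled tumour type were at or near 0. The 6 Oli-neu libraries separated by replicate number along their first principal component, which held 53.6% of the variance. Among MB1 libraries the numbers did not separate. In each bulk sample, fewer cells of a type and less RNA per cell cannot be told apart.

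A gene entered the test when 2 or more libraries of its table held 1 TPM of it, on the scale log2(TPM + 1), and 9 of the 10 genes qualified in Oli-neu and 10 in MB1. Zfp36 was the one under this limit in Oli-neu. Limma called 0% of genes in each comparison at an adjusted p of 0.05, 0 of 12280 in the 3 Oli-neu comparisons and 0 of 12407 in MB1, and so none of the genes described here. At an unadjusted p under 0.05 there were 747 genes in Oli-neu beside MB1 against Oli-neu alone and 1684 beside D341 against alone. The corresponding counts were 630 for Oli-neu beside D341 against beside MB1, and 1944 for MB1 beside Oli-neu against MB1 alone. About 614 to 620 would fall under this limit with no difference at all. The median log2 fold change of all genes tested was -0.06 for Oli-neu beside MB1 against alone, -0.16 beside D341 against alone, -0.09 beside D341 against beside MB1 and -0.17 for MB1 beside Oli-neu against alone. Each fold change below is to be read against that shift. Fold changes are differences of log2(TPM + 1) with their moderated standard error (SE).

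**Figure D1:**
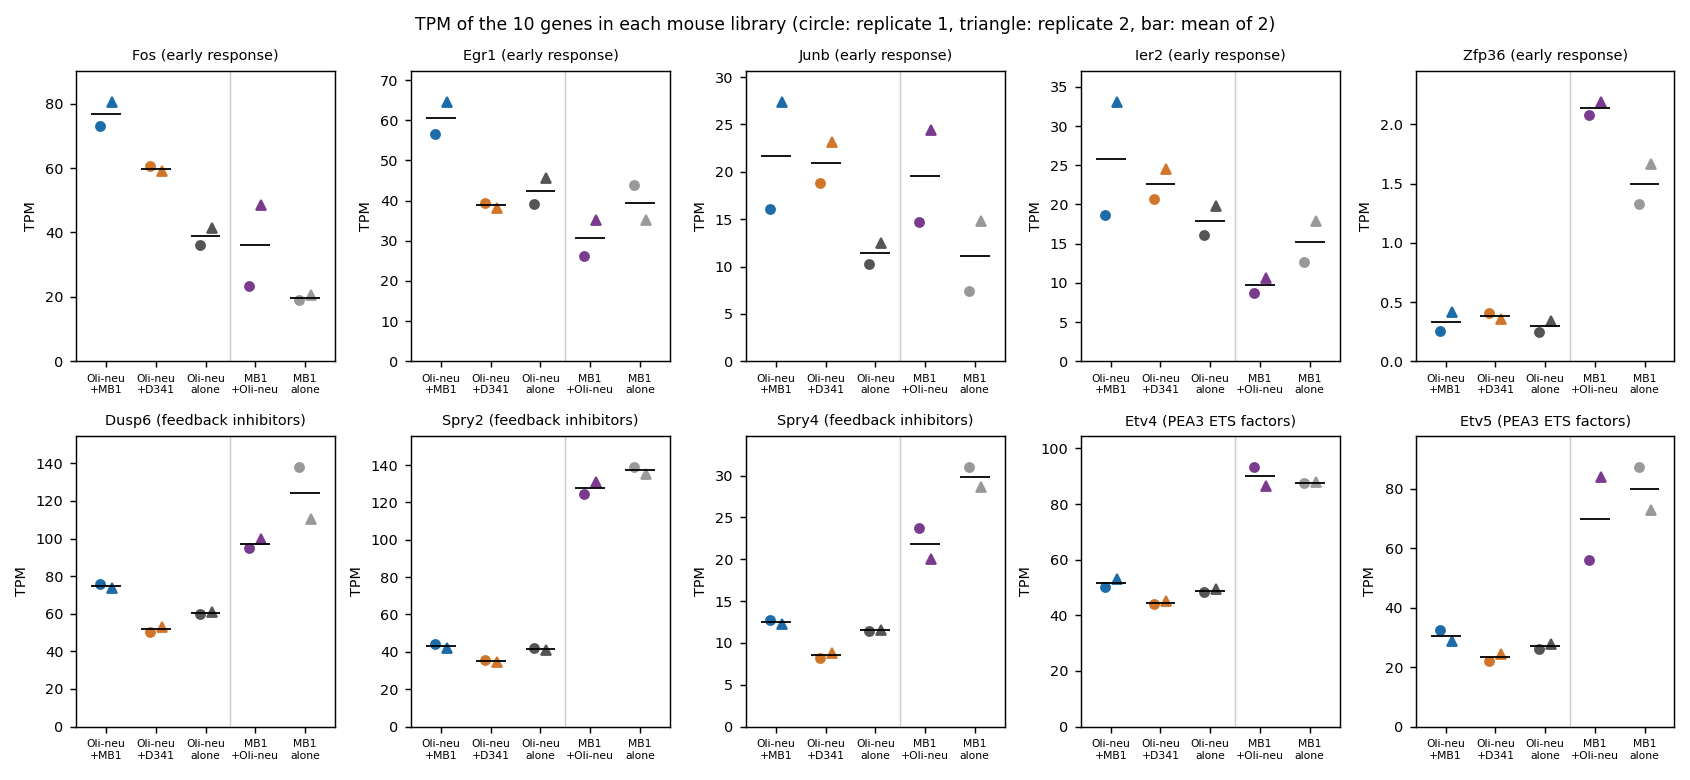
TPM (linear axes from 0) of the 10 genes in each of the 10 mouse libraries, with a circle for replicate 1, a triangle for replicate 2 and a bar for the mean of 2. Fos reached 73.1 to 80.6 TPM in Oli-neu beside MB1 and 59.0 to 60.5 TPM beside D341, against 36.3 to 41.4 TPM alone, whereas Dusp6, Spry2, Spry4, Etv4 and Etv5 were highest in MB1 cells.

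Fos, an AP-1 subunit that pairs with Jun proteins, had the largest fold change of the 9 genes tested in Oli-neu beside MB1. Its level was 73.1 and 80.6 TPM beside MB1 and 60.5 and 59.0 TPM beside D341, against 36.3 and 41.4 TPM in Oli-neu alone. The 3 Oli-neu groups did not overlap, and their order was beside MB1, beside D341, alone. The mean of 76.9 ± 5.30 TPM beside MB1 was 1.98 times the mean of 38.8 ± 3.62 TPM alone (SD, n = 2 each), a log2 fold change of 0.97 (SE 0.12). Beside D341 the mean was 59.8 ± 1.07 TPM, a log2 fold change of 0.61 (SE 0.12) against alone. The difference between the co-cultures, D341 against MB1, was -0.36 (SE 0.12). The Oli-neu comparisons with monoculture share the same 2 libraries of Oli-neu alone, so they are not independent of each other. Of all genes tested, 99.2% had a lower fold change than Fos beside MB1 and 97.9% beside D341.

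In MB1, Fos stood at 23.5 and 48.5 TPM beside Oli-neu, against 18.9 and 20.7 TPM alone. The groups did not overlap, but the 2 co-cultured libraries lay far apart. On the log2 scale the fold change was 0.74 (SE 0.36), made up of 0.30 for replicate number 1 and 1.19 for number 2. Without replicate 2 of MB1 beside Oli-neu it was 0.24, and without replicate 1 it was 1.25.

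Junb, which encodes another AP-1 subunit, was the other early response gene with a higher mean beside either partner by more than 0.5 on the log2 scale. It measured 16.04 and 27.4 TPM in Oli-neu beside MB1 and 18.8 and 23.1 TPM beside D341, against 10.3 and 12.5 TPM alone. Both co-cultures lay above monoculture and overlapped with each other. Against alone the log2 fold change was 0.83 (SE 0.28) beside MB1 and 0.82 (SE 0.28) beside D341. Beside MB1 it was 0.59 for replicate number 1 and 1.07 for number 2, and it was 0.46 without replicate 2 of Oli-neu beside MB1 and 1.20 without replicate 1. In MB1, Junb measured 14.7 and 24.4 TPM beside Oli-neu, against 7.46 and 14.8 TPM alone. The groups overlapped by a narrow margin, with a log2 fold change of 0.79 (SE 0.39). It was 0.34 without replicate 1 of MB1 alone and 1.24 without replicate 2, and 0.44 without replicate 2 of MB1 beside Oli-neu and 1.14 without replicate 1.

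Egr1, a zinc finger transcription factor, differed between the partners. Its level was 56.5 and 64.6 TPM in Oli-neu beside MB1 and 39.4 and 38.2 TPM beside D341, against 39.1 and 45.6 TPM alone. Beside MB1 both libraries were above every other Oli-neu library, while beside D341 they overlapped with monoculture. The log2 fold change against alone was 0.51 (SE 0.13) beside MB1. Against the same monocultures it was -0.12 (SE 0.13) beside D341, and 0.05 after median-ratio scaling, which sets the median of all genes near 0. Directly, D341 against MB1 as partner, it was -0.63 (SE 0.13), with 1.87% of all genes lower.

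In MB1, Egr1 measured 26.2 and 35.05 TPM beside Oli-neu, against 43.8 and 35.12 TPM alone. The groups touched but did not overlap, since the higher co-cultured library lay just under the lower monoculture. The log2 fold change was -0.36 (SE 0.22), with -0.72 for replicate number 1 and no difference for number 2.

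Ier2, which encodes a small nuclear protein of the early response, was at 18.6 and 33.1 TPM in Oli-neu beside MB1 and at 20.7 and 24.5 TPM beside D341, against 16.1 and 19.8 TPM alone. Beside D341 both libraries exceeded monoculture, and beside MB1 they overlapped with it, although the difference was positive within each replicate number, at 0.20 and 0.72. The log2 fold changes against alone were 0.46 (SE 0.29) beside MB1 and 0.32 (SE 0.29) beside D341. The first fell to 0.06 without replicate 2 of Oli-neu beside MB1, the library that also had the highest Junb. In MB1, Ier2 was at 8.73 and 10.7 TPM beside Oli-neu, against 12.7 and 17.8 TPM alone, with a log2 fold change of -0.59 (SE 0.22). Among early response genes in MB1, Ier2 thus lay on the other side of 0 from Fos.

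Zfp36 was close to absent in Oli-neu, with 0.253 and 0.413 TPM beside MB1 and 0.407 and 0.355 TPM beside D341, against 0.250 and 0.343 TPM alone. In MB1 it was at 2.08 and 2.19 TPM beside Oli-neu, against 1.33 and 1.67 TPM alone. The MB1 groups did not overlap, with a log2 fold change of 0.33 (SE 0.17). At this low level it depended on the pseudocount, with 0.49 at 0.1 TPM and 0.14 at 5 TPM, and it was 0.44 after median-ratio scaling. Its relatives, which bind the same AU-rich motif, were much more abundant. Zfp36l1 averaged 68.8 ± 3.48 TPM in Oli-neu beside MB1 and 48.1 ± 2.32 TPM beside D341, against 61.0 ± 2.19 TPM alone (SD, n = 2 each). Zfp36l2 averaged 14.0 ± 0.599 TPM beside MB1 and 12.8 ± 0.145 TPM beside D341, against 13.3 ± 1.15 TPM alone.

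**Figure D2:**
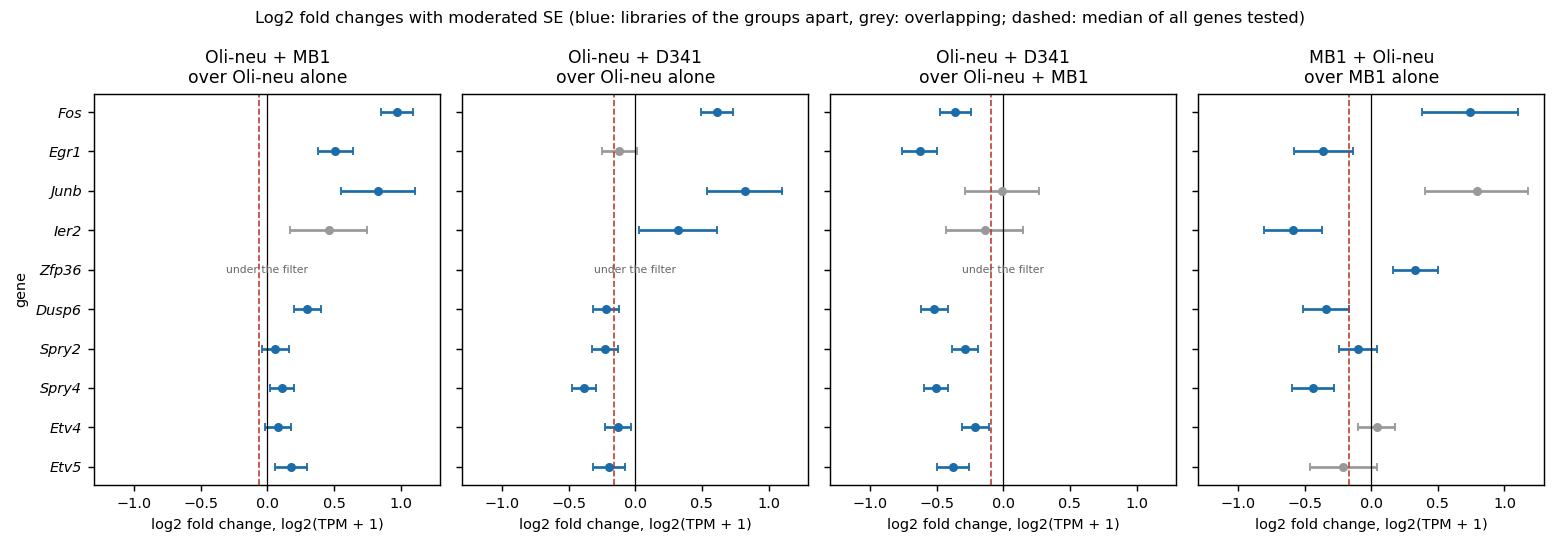
Log2 fold changes of the 10 genes in the 4 comparisons (points, with the moderated SE as bars), blue where the libraries of the 2 groups did not overlap and grey where they did; the dashed line is the median of all genes tested. Beside MB1 the points of all 9 genes tested in Oli-neu lie right of 0, from 0.06 for Spry2 to 0.97 for Fos, and between the co-cultures (D341 against MB1) all 9 lie left of 0, with Junb at -0.01, which became 0.09 after median-ratio scaling.

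Dusp6, the phosphatase specific for ERK, was the feedback gene with the largest fold change in Oli-neu beside MB1. It measured 75.6 and 73.6 TPM beside MB1 and 50.3 and 53.0 TPM beside D341, against 59.6 and 60.8 TPM alone. The replicates were close, the groups did not overlap, and the co-cultures stood on opposite sides of monoculture. Against alone the log2 fold change was 0.30 (SE 0.10) beside MB1. Beside D341 it was -0.22 (SE 0.10), which is -0.06 relative to the median of all genes. Directly, D341 against MB1 as partner, it was -0.52 (SE 0.10), and -0.42 after median-ratio scaling, with 2.82% of all genes lower.

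Spry4, a Sprouty protein that damps receptor signalling, showed the same order at a lower level. It measured 12.7 and 12.3 TPM in Oli-neu beside MB1 and 8.23 and 8.78 TPM beside D341, against 11.4 and 11.6 TPM alone. The groups did not overlap, although the margin between the libraries beside MB1 and those of Oli-neu alone was small. The log2 fold change against alone was 0.11 (SE 0.09) beside MB1 and -0.39 (SE 0.09) beside D341, and that between the co-cultures, D341 against MB1, was -0.51 (SE 0.09). Of the feedback and PEA3 genes, Spry4 was the one farthest below the median of all genes beside D341 against alone, by -0.24.

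Spry2, the other Sprouty gene among the members, differed less between the groups. Its level was 44.2 and 42.3 TPM in Oli-neu beside MB1 and 35.5 and 34.8 TPM beside D341, against 42.1 and 40.8 TPM alone. The libraries beside D341 were the lowest, and those beside MB1 lay just above monoculture. The log2 fold change against alone was 0.06 (SE 0.10) beside MB1 and -0.23 (SE 0.10) beside D341, the second being -0.07 after median-ratio scaling. Between the co-cultures, D341 against MB1, it was -0.29 (SE 0.10).

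In MB1 all 3 feedback genes had lower means beside Oli-neu, although Spry2 changed sign after median-ratio scaling. Dusp6 measured 94.9 and 99.6 TPM beside Oli-neu, against 138.0 and 110.3 TPM alone. Spry4 measured 23.7 and 20.0 TPM beside Oli-neu, against 31.0 and 28.7 TPM alone. Spry2 measured 124.7 and 130.9 TPM beside Oli-neu, against 138.9 and 135.4 TPM alone. The groups did not overlap for any of the 3. Their log2 fold changes were -0.34 (SE 0.17) for Dusp6, -0.44 (SE 0.16) for Spry4 and -0.10 (SE 0.14) for Spry2. After that scaling Dusp6 was at -0.17, Spry4 at -0.27 and Spry2 at 0.07.

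Etv4 and Etv5 are ETS transcription factors of the PEA3 group, which act downstream of FGF receptors. Etv4 measured 50.02 and 53.2 TPM in Oli-neu beside MB1 and 44.1 and 45.0 TPM beside D341, against 48.4 and 49.4 TPM alone. Etv5 measured 32.5 and 28.8 TPM beside MB1 and 22.1 and 24.6 TPM beside D341, against 26.1 and 27.8 TPM alone. Both genes had the order beside MB1, alone, beside D341 with no overlap. For Etv4 the log2 fold change against alone was 0.08 (SE 0.10) beside MB1 and -0.13 (SE 0.10) beside D341, and the second changed sign to 0.04 after median-ratio scaling. For Etv5 it was 0.18 (SE 0.12) beside MB1 and -0.20 (SE 0.12) beside D341, the second being -0.04 after that scaling. Between the co-cultures, D341 against MB1, Etv4 was at -0.21 (SE 0.10) and Etv5 at -0.38 (SE 0.12).

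In MB1 the PEA3 genes overlapped between the groups. Etv4 measured 93.3 and 86.7 TPM beside Oli-neu, against 87.5 and 88.0 TPM alone, and Etv5 measured 56.0 and 83.9 TPM beside Oli-neu, against 87.4 and 72.7 TPM alone. The spread of Etv5 between co-cultured replicates was wider than the difference between the groups, and its log2 fold change of -0.21 (SE 0.25) became 0.07 without replicate 1 of MB1 beside Oli-neu. The third PEA3 gene, Etv1, measured 12.2 and 11.8 TPM beside Oli-neu, against 23.0 and 18.7 TPM in MB1 alone, with no overlap and a log2 fold change of -0.74 (SE 0.17, adjusted p = 0.282, limma).

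Counted together, 8 of the 9 genes tested were higher without overlap in Oli-neu beside MB1 than alone, where 10.1% of all genes were, and 0 of 9 were lower, where 24.0% of all genes were. Beside D341 against alone, 3 of 9 were higher (7.12% of all genes) and 5 of 9 lower (44.0% of all genes), of which Etv4 changed sign after median-ratio scaling, so the lower ones were near the share of all genes. Beside D341 against beside MB1, 7 of 9 were lower, where 28.8% of all genes were, and 0 of 9 higher, where 6.60% were. In MB1 beside Oli-neu against alone, 2 of 10 were higher (10.9% of all genes) and 5 of 10 lower (41.5% of all genes), of which Spry2 changed sign after that scaling, again near the share of all genes. As the genes were chosen with these contrasts known, nothing is read from the counts beyond their size.

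The classes had different medians. The early response genes had a median log2 fold change of 0.67 beside MB1 against alone, 0.47 beside D341 against alone, -0.25 between the co-cultures (D341 against MB1) and 0.33 in MB1. The value between the co-cultures was -0.01 without replicate 2 of Oli-neu beside MB1. The median in MB1 is over 5 genes, against 4 in Oli-neu, and is that of Zfp36, and it was 0.49 at a pseudocount of 0.1 TPM, 0.14 at 5 TPM and 0.19 with a filter of 5 TPM. For the feedback inhibitors the median was 0.11 beside MB1 against alone, -0.23 beside D341 against alone, -0.51 between the co-cultures and -0.34 in MB1. For the PEA3 genes it was 0.13 beside MB1 against alone, -0.17 beside D341 against alone, -0.29 between the co-cultures and -0.09 in MB1. Beside D341 the early response genes Fos, Junb and Ier2 were thus higher in mean than in monoculture while the feedback and PEA3 genes were lower or near the median of all genes. Egr1, the other early response gene tested in Oli-neu, was at -0.12 there and overlapped with monoculture.

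**Figure D3:**
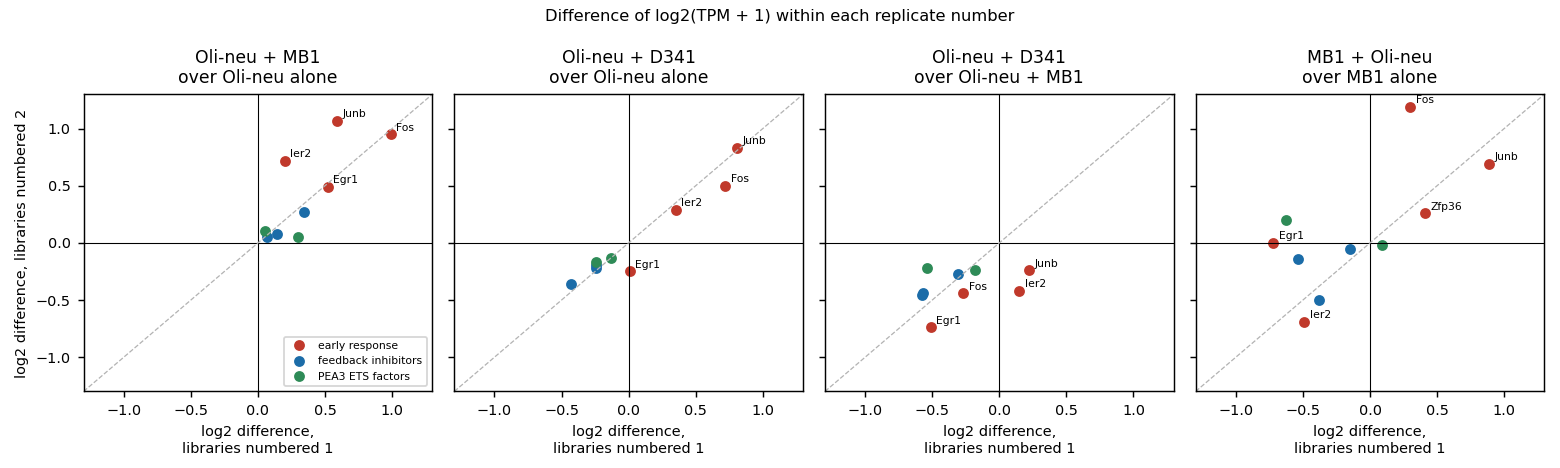
Difference in log2(TPM + 1) for replicate number 1 (x axis) and for number 2 (y axis) for each tested gene in the 4 comparisons, coloured by class, with early response genes named; the dashed line marks equal differences. Fos lies near that line in Oli-neu beside MB1, at 0.99 and 0.95, and far from it in MB1, at 0.30 and 1.19.

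Levels also differed between the lines, which were quantified in separate tables, so they are set side by side without a test. Dusp6, Spry2, Spry4, Etv4 and Etv5 were higher in every MB1 library than in every Oli-neu library, by the largest factor for Spry2, with means of 127.8 ± 4.40 and 137.1 ± 2.44 TPM in MB1 beside Oli-neu and alone, against 35.1 ± 0.502 to 43.3 ± 1.37 TPM in the Oli-neu groups (SD, n = 2 each). Zfp36 was likewise higher in MB1. Fos was higher in Oli-neu beside either partner than in any MB1 library. Neighbouring groups overlapped in the order of Egr1, Junb and Ier2, where the lines did not separate.

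Transcripts of Egfr and Fgfr1, receptors for the growth factors of the medium, differed in level between the lines. Egfr, the EGF receptor, averaged 99.9 ± 23.6 TPM in MB1 beside Oli-neu and 66.3 ± 14.0 TPM in MB1 alone (SD, n = 2 each), whereas no Oli-neu library exceeded 0.116 TPM. Erbb2, its relative without a known ligand, averaged 21.7 ± 4.33 TPM in Oli-neu beside MB1 and 15.7 ± 2.86 TPM beside D341, against 18.5 ± 2.42 TPM alone, and 2.29 ± 0.0662 and 2.64 ± 0.0903 TPM in MB1 beside Oli-neu and alone. Fgfr1, a receptor for bFGF, was present in both lines, at 27.5 ± 3.35 TPM in Oli-neu beside MB1 and 23.6 ± 0.984 TPM beside D341, against 26.7 ± 1.14 TPM alone. It averaged 86.3 ± 10.6 TPM in MB1 beside Oli-neu and 91.0 ± 7.45 TPM in MB1 alone, and every MB1 library was above every Oli-neu library. Mapk3, which encodes an ERK kinase, measured 223.9 and 157.4 TPM in Oli-neu beside MB1, against 203.1 and 177.6 TPM alone, and these groups overlapped.

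Of 49 other early response genes listed, 47 were matched and 41 tested, and limma called 0. Beside MB1 against alone, 14 of 41 were higher without overlap (34.1%, against 10.1% of all genes) and 6 lower (14.6%, against 24.0%), and the list median was 0.11 on the log2 scale, where that of all genes was -0.06. Beside D341 against alone the counts were 12 higher (29.3%, against 7.12%) and 10 lower (24.4%, against 44.0%), with a median of 0.00 against -0.16. Among the named genes, Gadd45b, a stress-inducible gene, measured 36.5 and 51.8 TPM beside MB1 and 52.7 and 76.0 TPM beside D341, against 27.5 and 35.7 TPM alone. Jun, the partner of Fos in AP-1, measured 37.6 and 36.4 TPM beside MB1 and 40.6 and 39.9 TPM beside D341, against 27.8 and 27.0 TPM alone. Both co-cultures were above monoculture for these 2 genes, by a log2 fold change beside D341 of 0.99 (SE 0.27) for Gadd45b and 0.54 (SE 0.10) for Jun, each with an adjusted p of 0.320 in limma. Id1 was above monoculture beside D341 only, with 52.3 and 52.9 TPM, against 31.7 and 29.4 TPM alone. That was a log2 fold change of 0.77 (SE 0.13, adjusted p = 0.320, limma). Beside MB1 it was below monoculture, at 20.95 and 25.5 TPM.

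Not all early response genes were high. Nr4a2 measured 7.28 and 16.18 TPM in Oli-neu beside D341, against 24.2 and 16.31 TPM alone, a narrow margin. Its log2 fold change was -0.81 (SE 0.39, adjusted p = 0.405, limma). Sgk1, which encodes a serum-inducible kinase, measured 4.07 and 3.61 TPM in Oli-neu beside D341, against 7.42 and 7.10 TPM alone, a log2 fold change of -0.77 (SE 0.10, adjusted p = 0.320, limma). Myc measured 49.98 and 39.9 TPM beside D341, against 68.0 and 56.1 TPM alone, at -0.46 (SE 0.17, adjusted p = 0.354, limma). Ier5 was the one gene of the list that met the limits for naming as lower beside MB1, with 4.55 and 5.35 TPM, against 6.94 and 6.81 TPM alone. In MB1 beside Oli-neu against alone, 8 of 41 were higher (19.5%, against 10.9% of all genes) and 10 lower (24.4%, against 41.5%), with a median of -0.03 against -0.17. There Hes1, a Notch target, measured 51.2 and 46.1 TPM beside Oli-neu, against 76.7 and 98.0 TPM alone.

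Of 32 other feedback genes listed, 28 were tested in either line and limma called 0. Beside MB1 against alone, 8 of 28 were higher without overlap (28.6%, against 10.1% of all genes) and 2 lower (7.14%, against 24.0%). Beside D341 against alone 3 were higher (10.7%, against 7.12%) and 10 lower (35.7%, against 44.0%). Beside D341 against beside MB1, 1 was higher (3.57%, against 6.60%) and 15 lower (53.6%, against 28.8%), and the list median was -0.18 on the log2 scale, where that of all genes was -0.09. Dusp1, a nuclear phosphatase that is itself an early response gene, measured 14.9 and 17.6 TPM beside MB1 and 14.6 and 17.5 TPM beside D341, against 10.1 and 11.4 TPM alone. It was thus above monoculture beside either partner, as were Fos and Junb, and unlike Dusp6. Spred1, a Sprouty relative, measured 14.0 and 13.6 TPM beside D341, against 19.8 and 17.7 TPM alone, a log2 fold change of -0.42 (SE 0.15, adjusted p = 0.353, limma). In MB1, 2 of 28 were higher (7.14%, against 10.9% of all genes) and 12 lower (42.9%, against 41.5%), with a median of -0.16 against -0.17 over all genes.

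Of the other ETS factors and targets of sustained ERK signalling, 0 of 19 were higher without overlap beside D341 than beside MB1 (6.60% of all genes) and 12 lower (63.2%, against 28.8% of all genes), while 7 overlapped and 2 had a higher mean. Their median log2 fold change was -0.18, against -0.09 over all genes, and limma called 0. After median-ratio scaling the list median was -0.08. Beside D341 against alone, 9 of 19 were lower (47.4%, against 44.0% of all genes) and 2 higher (10.5%, against 7.12%), so the lower ones were near the share of all genes. Beside MB1 against alone, 3 were higher (15.8%, against 10.1%) and 2 lower (10.5%, against 24.0%). Etv1 measured 19.8 and 19.1 TPM beside D341, against 28.0 and 24.1 TPM beside MB1. Phlda1, a target of growth factor signalling, was an exception in order, with 108.2 and 137.4 TPM beside MB1 and 127.7 and 123.6 TPM beside D341, against 88.4 and 90.5 TPM alone. The core of the cascade, from RAS to ERK and RSK, stayed near the median of all genes in Oli-neu, with list medians of -0.04 beside MB1 and -0.14 beside D341 against alone, over 34 genes. Of its named genes, Rps6ka1, a kinase activated by ERK, measured 3.09 and 2.82 TPM beside MB1, against 4.89 and 5.67 TPM alone. Beside D341 against alone, 18 of these 34 genes were lower without overlap (52.9%, against 44.0% of all genes) and 2 higher (5.88%, against 7.12%). Beside MB1 against alone, 7 were higher and 7 lower (20.6% each, against 10.1% and 24.0%). In MB1, Mras measured 42.6 and 48.6 TPM beside Oli-neu, against 23.5 and 22.3 TPM alone. There 5 of 34 were higher and 8 lower.

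**Figure D4:**
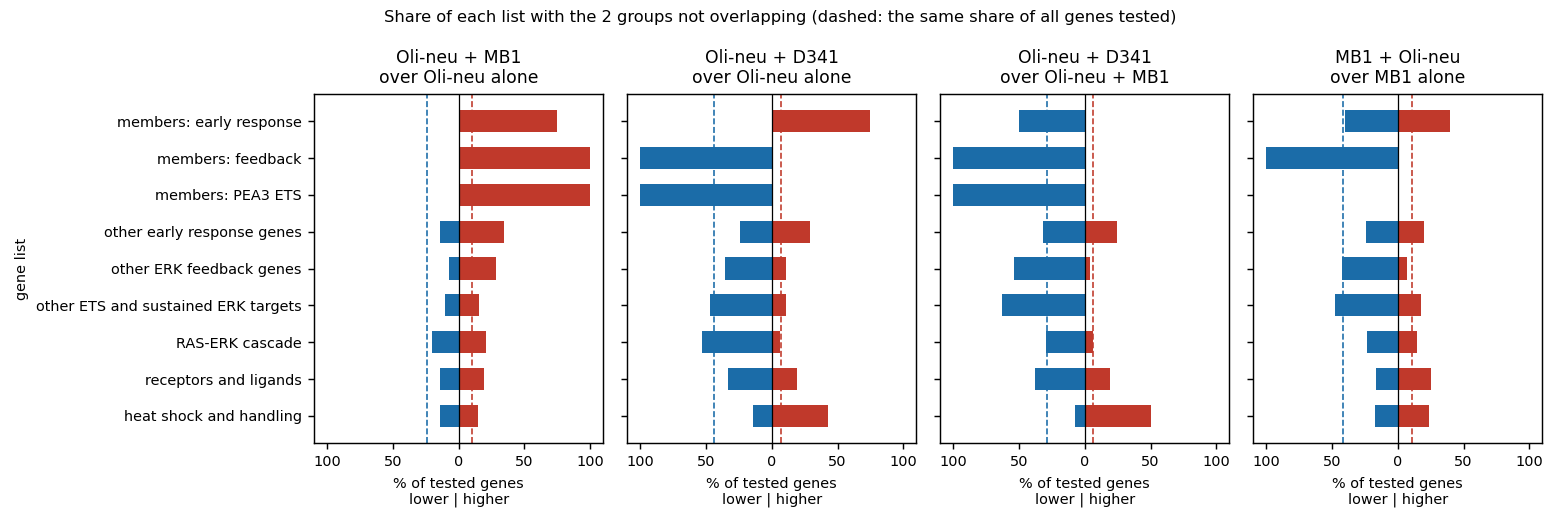
Share of tested genes (%) in each list whose libraries were higher (red, right) or lower (blue, left) without overlap between the groups, for the 4 comparisons; dashed lines give the same shares over all genes tested. Other early response genes were higher in 34.1% beside MB1 and 29.3% beside D341 against alone. Other ETS and sustained ERK targets were lower in 63.2% beside D341 against beside MB1 (28.8% of all genes). Beside D341 against alone they were lower in 47.4% (44.0% of all genes).

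Of the receptor genes, Kit and Pdgfra were named by their size of difference beside D341. Kit, the receptor for stem cell factor, measured 11.8 and 11.7 TPM in Oli-neu beside D341, against 21.7 and 22.8 TPM alone, a log2 fold change of -0.86 (SE 0.09, adjusted p = 0.226, limma). Beside MB1 Kit was also below monoculture, at 17.1 and 17.05 TPM. Pdgfra, which marks oligodendrocyte precursors and signals to ERK, measured 8.42 and 7.13 TPM beside D341, against 13.2 and 12.0 TPM alone, at -0.64 (SE 0.13, adjusted p = 0.320, limma). Over the list of receptors and ligands, 4 of 21 were higher without overlap (19.1%, against 7.12% of all genes) and 7 lower (33.3%, against 44.0% of all genes), so the list was not more often lower than all genes. Spry4 and these receptors were low in the same 2 libraries, and whether they are linked was not tested. Etv5 was near the median of all genes there, at -0.04 relative to it.

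Some heat shock genes had high levels beside D341. Hspa1a measured 12.0 and 10.96 TPM in Oli-neu beside D341, against 2.15 and 3.03 TPM alone, and Hspa1b measured 20.8 and 22.1 TPM beside D341, against 4.17 and 6.74 TPM alone. Both were above all other Oli-neu libraries, with log2 fold changes of 1.81 (SE 0.18) and 1.83 (SE 0.29) and adjusted p-values of 0.226 and 0.320 in limma. Over the list of heat shock and handling genes, 6 of 14 were higher (42.9%, against 7.12% of all genes) and 2 lower (14.3%, against 44.0%) beside D341 against alone, while beside MB1 it was 2 higher and 2 lower (14.3% each, against 10.1% and 24.0%). Hspd1, a mitochondrial chaperone, went the other way, with 49.7 and 43.9 TPM beside D341, against 76.9 and 66.6 TPM alone. Hspa1a was also higher in MB1 beside Oli-neu, with 6.41 and 11.7 TPM, against 2.88 and 5.02 TPM alone. The part of heat shock genes in the values of Fos and Junb was not tested.

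Transcripts of the partner line were scarce. In Oli-neu beside MB1, 15 genes at 50 TPM or more in MB1 alone and under 0.1 TPM in Oli-neu alone summed to 0.0719 and 3.36 TPM, against 0.0923 and 0.472 TPM in Oli-neu alone and 6031 and 5755 TPM in MB1 alone, which corresponds to 0.0291% of the level in MB1 and comes almost wholly from replicate 2. In MB1 beside Oli-neu, 4 genes chosen the same way for Oli-neu summed to 0.322 and 4.98 TPM, against 0 and 0 TPM in MB1 alone and 3899 and 3143 TPM in Oli-neu alone, or 0.0753% of the level in Oli-neu. Fos itself was at 18.9 and 20.7 TPM in MB1 alone and at 23.5 and 48.5 TPM in MB1 beside Oli-neu, against 36.3 and 41.4 TPM in Oli-neu alone. The part of partner transcripts in the Fos values was not tested. Markers of microglia, endothelium, and fibroblasts summed to at most 6.80 TPM a list in any Oli-neu library, those of neurons to between 24.4 and 37.0 TPM and those of astrocytes to between 170.9 and 208.3 TPM. In MB1 the sums of some lists differed between the groups. The 6 microglia markers summed to 11.5 and 21.7 TPM beside Oli-neu, against 4.91 and 7.10 TPM alone, with 1 of 6 at 1 TPM or more in either group and Aif1, P2ry12 and Ptprc at 0 beside Oli-neu. The 6 astrocyte markers summed to 509.9 and 507.3 TPM beside Oli-neu, against 434.4 and 396.7 TPM alone. The 6 neuron markers summed to 65.6 and 136.1 TPM beside Oli-neu, against 146.1 and 87.1 TPM alone. The part of these lists, and of the oligodendrocyte list, in the MB1 values was not tested. Human transcripts of D341 were not followed. Mitochondrially encoded genes held between 1.93% and 4.53% of a library's TPM in Oli-neu and between 5.73% and 9.56% in MB1.

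Genes with the most similar profile over the 6 Oli-neu libraries were ranked by the root mean square difference of centred log2(TPM + 1), among 7332 genes. For Fos these were Col18a1 (0.109), Foxp1 (0.144) and Lbp (0.150), where Fos itself varied by 0.406. For Egr1 they were Ttc33 (0.068), Ep400 (0.110) and Lhfpl2 (0.110), where Egr1 varied by 0.284. Dusp6, with a variation of 0.215, was nearest to Lrp4 (0.042), Xrcc4 (0.044) and Ntn1 (0.048). The nearest to Spry4, which varied by 0.220, were Zfp36l1 (0.040), Zfp326 (0.044) and Rere (0.046). Col18a1, for example, measured 6.13 and 7.72 TPM beside MB1 and 5.46 and 5.72 TPM beside D341, against 3.17 and 2.88 TPM alone, which is the order of Fos at a lower level.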

How the data were processed

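RNA from 14 libraries, 10 of them mouse, was poly(A)-selected, prepared with a directional kit and sequenced over 75 cycles on a NextSeq500, per the labels. The authors deposited TPM summed per gene, 1 table per line. Per the submitters' processing notes FastQC 0.11.8, MultiQC 1.7, Salmon 0.14.1, DESeq2 1.22.2 and GRCm38 were used. Salmon can divide reads of near-identical copies between genes, and pseudogenes took 25.2% to 38.2% of TPM. Symbols came from GENCODE M21.

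Genes that reached 1 TPM in 2 or more libraries of a table were fitted in R 4.3.3 by limma 3.58.1 on the log2(TPM + 1) scale (trend, two-sided, Benjamini-Hochberg, threshold 0.05), the 6 Oli-neu libraries in 1 fit and the 4 MB1 libraries in another. The procedure was also run on simulated data, with noise drawn independently for each library. Same-numbered Oli-neu libraries deviated together, so that run does not show how the procedure performs on these data. p-values cover the spread between 2 cultures of one line.

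The 10 genes and all lists were chosen with earlier results of these data known. From each list up to 3 genes per direction and comparison could be named, with at least 5 TPM, no overlap and a log2 fold change of at least 0.4 in size. Levels of a few receptor, kinase and family genes were given whatever their values, and one of these is not reported here. Alternatives were other pseudocounts, filters, scalings and limma settings, a replicate block and each library left out.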

Additional observations from a re-analysis of the deposited data

Results flagged for a closer look

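Genes whose libraries moved one way in Oli-neu beside MB1 and the opposite way in MB1 beside Oli-neu were Egr1, Dusp6, Spry4 and Spry2. The lines were quantified in separate tables, and the difference between them was not tested. For Egr1 the log2 fold change against monoculture was 0.51 in Oli-neu and -0.36 in MB1, a difference of 0.87. For Dusp6 it was 0.30 in Oli-neu and -0.34 in MB1, a difference of 0.64. For Spry4 it was 0.11 in Oli-neu and -0.44 in MB1, a difference of 0.55. For Spry2 it was 0.06 in Oli-neu and -0.10 in MB1, a difference of 0.16, and its value in MB1 changed sign to 0.07 after median-ratio scaling. The medians of all genes tested were -0.06 in Oli-neu and -0.17 in MB1.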

How the results depend on the processing

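Each group has 2 libraries and the depth is unknown, which limits every value here. Of 37 gene results, 30 kept their sign under every alternative, and 10 of 554 values changed sign. Besides those given with the genes, D341 against MB1 gave 0.36 for Junb and 0.26 for Ier2 without replicate 2 of Oli-neu beside MB1, Junb was also at 0.13 without replicate 1 beside D341, at 0.09 under median-ratio scaling and at 0.00 over protein-coding genes, and Etv4 in MB1 gave -0.02 without replicate 1 beside Oli-neu. Genes called against 0 were, for Oli-neu beside MB1 against alone, 3 at a pseudocount of 0.1 TPM, 1 without a filter, 2 under median-ratio scaling, 2 over protein-coding genes and 1 without a trend. Beside D341 against alone they were 3 without a filter, 1 over protein-coding genes and 0 to 2 as libraries were left out, 2 being without replicate 2 beside D341. Beside D341 against beside MB1 they were 6 without a filter, 1 over protein-coding genes and 1 without a trend. In MB1 they were 5 over protein-coding genes, 9 with robust=TRUE and 0 to 68 as libraries were left out, with 68 without replicate 1 of MB1 alone and 1 without replicate 2. None of the 10 genes was among them. Median-ratio scaling moved the medians beside MB1 to 0.17 (feedback) and 0.19 (PEA3), those beside D341 to 0.63 (early response), -0.07 (feedback) and -0.00 (PEA3), those between the co-cultures to -0.41 and -0.19, and those in MB1 to -0.17 and 0.08. The feedback median was -0.20 over protein-coding genes beside D341 and -0.38 at a pseudocount of 5 TPM between the co-cultures. As libraries were left out, the early response median ranged from 0.44 to 0.95 beside MB1, from -0.48 to -0.01 between the co-cultures and from 0.23 to 0.43 in MB1, the feedback median from -0.55 to -0.47 between the co-cultures and from -0.49 (without replicate 2 of MB1 alone) to -0.18 (without replicate 1) in MB1, and the PEA3 median in MB1 from -0.21 to 0.03, positive without replicate 1 beside Oli-neu. The cause was not tested.

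The replicate number as a block called 0 genes in each of the 4 comparisons and changed no call. Same-numbered Oli-neu libraries deviated together (r of 0.593 to 0.618 across genes), and MB1 libraries did not (-0.115). With 2 pairs per comparison the numbers were not taken as pairs. A crossed pairing in MB1, chosen after seeing the data, called 0 genes.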

Other observations

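Inflammatory transcripts whose AU-rich 3' UTRs are known targets of tristetraprolin were listed beside Zfp36. Of the 14 listed, 8 passed the filter in MB1, Ccl2 among them through its level beside Oli-neu, so no count over them is given, and limma called 0. Ccl2, a chemokine, measured 9.67 and 9.11 TPM in MB1 beside Oli-neu, against 0.611 and 0.445 TPM in MB1 alone, a log2 fold change of 2.77 (SE 0.16, adjusted p = 0.0778, limma). Cxcl10 measured 8.33 and 7.85 TPM beside Oli-neu, against 2.07 and 2.43 TPM alone. Vegfa was lower in mean, with 477.7 and 578.2 TPM beside Oli-neu, against 657.9 and 841.9 TPM alone. Hbegf, a ligand of the EGF receptor, measured 18.3 and 18.9 TPM in MB1 beside Oli-neu, against 10.1 and 12.7 TPM in MB1 alone. Timp1, an inhibitor of matrix proteases, measured 14.7 and 12.7 TPM beside Oli-neu, against 5.60 and 6.47 TPM alone. Both are in the list of ETS factors and sustained ERK targets. Of that list, 4 of 23 were higher without overlap in MB1 (17.4%, against 10.9% of all genes) and 11 lower (47.8%, against 41.5%). Shc4 (log2 fold change -0.72) and Phlda1 (-0.66) were among the lower ones.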
